A study of Homo sapiens with 20 samples.

Results

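RNA of exosomes released by HD-induced HEK293 cells was compared with RNA of exosomes released by control HEK293 cells. The comparison took 9 of the 20 libraries of the study: the 5 titled control exosome and 4 of the 5 titled HD exosome, here called control exosomes 1 to 5 and HD exosomes 1, 2, 3 and 5. HD exosome 4 was left out because it held 1074 estimated reads. HEK293 is an established human embryonic kidney line, and no genotype, transgene, dose or time is given in the labels beyond the words control and HD-induced. The labels used here do not say by what means the Huntington state was brought about. The remaining libraries are of cytoplasmic RNA granules from the same 2 states of cells. The design text calls the replicates biological, and it names the exploration of RNA content in normal and Huntington conditions as the purpose.

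Exosomes are small vesicles that form as buds inside endosomes and are released when such an endosome fuses with the cell surface. Their RNA is mostly fragments and whole copies of what the cytoplasm holds, with some RNAs enriched or depleted. Huntington's disease is caused by an expanded CAG repeat in HTT, whose protein takes part in vesicle transport, and altered vesicle release is one of the processes studied in the disease. In such bulk preparations, fewer vesicles of a kind and less RNA per vesicle cannot be told apart.

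Of 13374 genes tested, 1 differed between HD and control exosomes (0.00748% of genes; edgeR's quasi-likelihood test, Benjamini-Hochberg adjusted p under 0.05), and it was higher in HD exosomes. At an unadjusted p under 0.05 there were 971 genes (7.26%), 522 higher (3.9%) and 449 lower (3.36%). Every HD library lay above every control library for 101 genes (0.755%) and below every control library for 122 (0.912%). DESeq2 called 10 genes (0.0748%), 6 higher (0.0449%) and 4 lower (0.0299%), and limma voom with quality weights called 2. The median log2 fold change over all genes was -0.02, so the groups were centred on each other after scaling. The 95% interval of a log2 fold change reached 0.62 either way in the median gene, a 1.53-fold change, and for 7154 genes (53.5%) the whole interval lay within 2-fold either way. Levels below are in CPM, the standard unit of counts scaled to the library total, here over named genes and with trimmed means of M values, and they compare libraries for 1 gene, not genes with each other. Errors of fold changes are standard errors (SE), with n = 5 control and 4 HD libraries. Errors of the differences from granules come from a fit over 19 libraries.

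**Figure D1:**
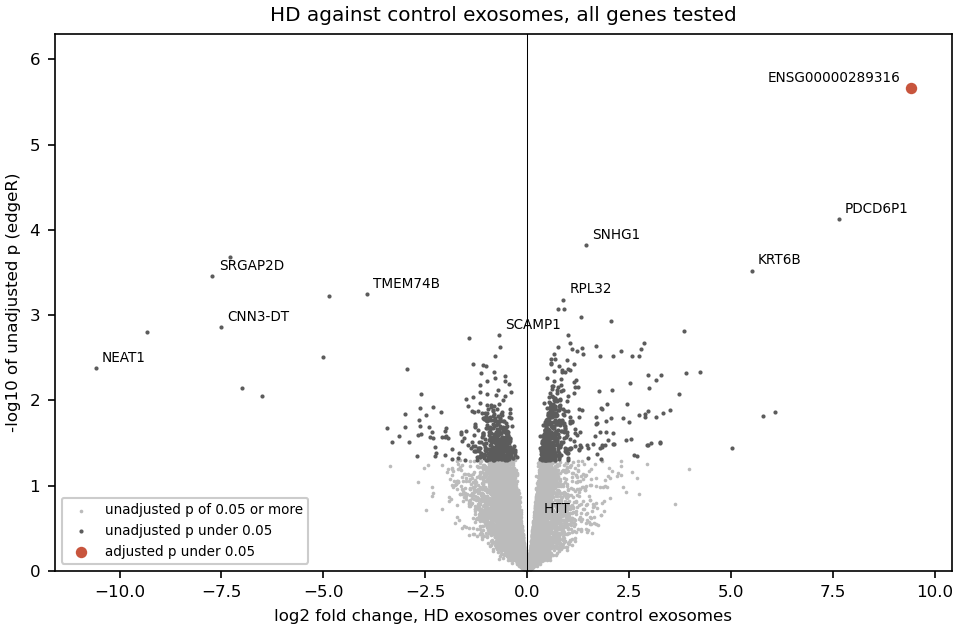
Each point is 1 of 13374 genes, with its log2 fold change of HD over control exosomes on the x axis and the -log10 of its unadjusted edgeR p on the y axis. The single gene with an adjusted p under 0.05 is drawn large at the top right, and HTT lies near the bottom centre.

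The libraries themselves differed in depth and make-up. Control exosomes held 8990626 to 15610232 estimated reads and HD exosomes 1975861 to 14445165. Of these, 5300770 to 9039448 in controls lay on named genes. In HD exosomes 1, 2, 3 and 5 the reads on named genes were 7405993, 1941886, 1327496 and 3003716. In HD exosome 2, 86.6% of reads lay on entries without a gene name, against 29.3% to 46.3% in the other 8 libraries. One lncRNA, ENSG00000280800, stood at 287245 CPM in HD exosome 2 and at 0 in HD exosomes 3 and 5, against 1747 to 11838 CPM in controls. Pearson's r of log2(CPM + 1) across genes was 0.94 to 0.97 between control libraries and 0.96 to 0.97 between HD exosome 1 and the controls. For HD exosome 2 it was 0.84 to 0.91, for HD exosome 3 0.88 to 0.90 and for HD exosome 5 0.81 to 0.90. So HD exosome 1 lay as close to the controls as they lay to each other, and the other 3 HD libraries lay apart from the controls. Those 3 libraries also had fewer reads on named genes than any control, while HD exosome 1 lay within the control range. The part of depth in these correlations and in the spread given below was not tested.

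Base composition moved with these differences in HD exosomes 2 and 5, while HD exosome 3 stayed within the controls on this measure. Over 12443 coding genes, the deviation of a gene from its control mean had a Spearman correlation with its GC content of 0.29 in HD exosome 1, -0.61 in HD exosome 2, -0.06 in HD exosome 3 and -0.77 in HD exosome 5. Among controls it ranged from -0.65 to 0.64, with smaller deviations. In the quartile of genes richest in GC, the median log2 deviation was -0.90 in HD exosome 2 and -1.39 in HD exosome 5, against -0.26 to 0.34 in controls. It was 0.11 in HD exosome 1 and -0.17 in HD exosome 3. The SD of a gene's log2 level was larger among HD than among control libraries for 86.2% of genes, with medians of 0.52 and 0.25. When the trend with GC content was removed from each library before the test, the biological coefficient of variation went from 0.340 to 0.250. Again 1 gene was called, ENSG00000289316, which had no GC content available and so was not itself corrected. Values after this removal are given below as GC-corrected.

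**Figure D2:**
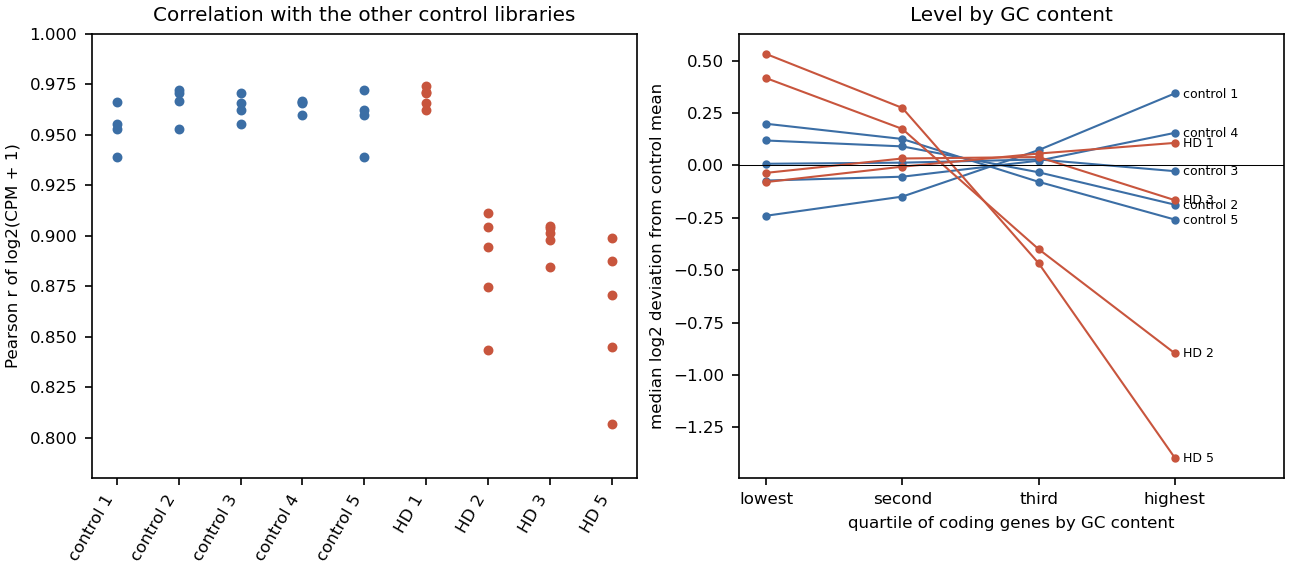
Left, Pearson's r of log2(CPM + 1) of each library (x axis) with every other control library (1 point per pair, control libraries blue and HD libraries red); right, the median log2 deviation from the control mean (y axis) over coding genes in 4 quartiles of GC content (x axis), 1 line per library. HD exosomes 2 and 5 end lowest in the quartile richest in GC, at -0.90 and -1.39. HD exosomes 1 and 3 end within the range of the controls in that quartile.

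The gene called was ENSG00000289316, an lncRNA without a symbol whose single annotated transcript is 757 bases long. It was listed at 0 in all 5 control exosomes and at 8.69, 20.2, 14.1 and 19 CPM in HD exosomes 1, 2, 3 and 5. All 4 HD libraries were therefore above all controls, and HD exosome 1, the HD library that correlated best with the controls, was the lowest of them. Against a floor of 3 counts over the control group (0.0829 CPM), the HD mean of 15.5 ± 5.24 CPM (SD, n = 4) was at least 187-fold higher (adjusted p 0.0292, edgeR). Its adjusted p lay between 0.051 and 0.320 when control exosome 1, control exosome 5, HD exosome 2, HD exosome 3 or HD exosome 5 was left out, so the call rests on each of them. No GC content was available for this gene, so the GC correction was not applied to it. The log2 fold change was 9.41 in both fits, and the adjusted p of the GC-corrected fit (0.00464, edgeR) is no test of its GC content. Scaled with the granule libraries, the gene stood at 0 in all 5 HD granules and in 4 control granules and at 15.1 CPM in control granule 5.

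Among genes with a symbol, none passed, and the 5 with the smallest p in each direction are described as not passing (smallest adjusted p 0.497, edgeR). Higher in HD exosomes were PDCD6P1, SNHG1, KRT6B, RPL32 and RPL23. PDCD6P1 (chromosome 5, 1597557 to 1634005, build GRCh38.p14 as for all positions here) is a transcribed pseudogene of PDCD6, whose protein helps the ESCRT machinery that shapes vesicles. It was listed at 0 in all 5 controls and at 4.21, 3.25, 2.96 and 7.16 CPM in HD exosomes 1, 2, 3 and 5, at least 53-fold higher against the same floor (log2 fold change 7.64 ± 1.01, adjusted p 0.497). PDCD6 itself, looked up after these values were seen because its sequence could share reads, stood at 66.0 to 73.3 CPM in controls and 48.1 to 78.2 CPM in HD exosomes (-0.13 ± 0.16), so the groups overlapped for the parent gene. DESeq2 (adjusted p 2.82e-06) and voom (0.00228) called the pseudogene.

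SNHG1 (chromosome 11, 62851978 to 62855885) is an lncRNA that hosts small nucleolar RNAs in its introns. Its level was 37.3, 36.2, 44.01, 39.7 and 43.8 CPM in control exosomes 1 to 5 and 49.3, 135, 141 and 115 CPM in HD exosomes 1, 2, 3 and 5. The groups did not overlap, but HD exosome 1 lay just above the highest control, and the other 3 lay far above it, with group means of 40.2 and 110.2 CPM. The log2 fold change was 1.44 ± 0.26 (adjusted p 0.584), and without HD exosome 1 it was 1.66 and passed (adjusted p 0.00267).

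RPL32 (chromosome 3, 12834485 to 12841582) and RPL23 (chromosome 17, 38847860 to 38853721) encode proteins of the large ribosomal subunit. RPL32 stood at 509, 932, 824, 681 and 887 CPM in controls and at 1063, 1514, 1446 and 1605 CPM in HD exosomes (log2 fold change 0.88 ± 0.19, adjusted p 0.584). RPL23 stood at 1045, 1544, 1317, 1422 and 1506 CPM in controls and at 1668, 2596, 2312 and 2659 CPM in HD exosomes (0.76 ± 0.17, adjusted p 0.584). For both mRNAs every HD library was above every control, with HD exosome 1 nearest to them. KRT6B (chromosome 12, 52446651 to 52452146), a keratin of wounded and hair-bearing skin, stood at 0.322, 0, 0, 0.734 and 1.73 CPM in controls and at 1.09, 16.3, 22.9 and 58.9 CPM in HD exosomes. HD exosome 1 lay within the controls and the other 3 lay above them (5.50 ± 1.09, adjusted p 0.584). Reads of KRT6B can be shared with its near copies KRT6A and KRT6C.

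Lower in HD exosomes, again without passing, were SRGAP2D, TMEM74B, SLC31A2, CNN3-DT and SCAMP1. SRGAP2D (chromosome 1, 143972639 to 144069704) is a partial duplicate of SRGAP2, a gene of neuron migration. It stood at 1.07, 3.75, 5.67, 6.06 and 7.38 CPM in controls and was listed at 0 in all 4 HD exosomes, at least 21.5-fold lower against a floor of 3 counts over the HD group (0.223 CPM; adjusted p 0.584). Its near copies, looked up afterwards, overlapped between the groups: SRGAP2 stood at 39.5 to 58.7 CPM in controls and 33.3 to 53.7 CPM in HD exosomes, SRGAP2B at 46.8 to 63.6 and 45.9 to 71.6 CPM, and SRGAP2C at 30.4 to 42.4 and 35.1 to 44.8 CPM. CNN3-DT (chromosome 1, 94926360 to 94963270), a transcript that starts beside the calponin gene CNN3, stood at 4.18, 0.331, 4.50, 4.59 and 7.07 CPM in controls and was listed at 0 in all HD exosomes, at least 18.6-fold lower (adjusted p 0.584).

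TMEM74B (chromosome 20, 1180570 to 1189409), which encodes a membrane protein, stood at 3.22, 2.54, 3.33, 4.59 and 2.51 CPM in controls, at 0.407 CPM in HD exosome 1 and at 0 in the other HD exosomes (log2 fold change -3.94 ± 0.84, adjusted p 0.584). SLC31A2 (chromosome 9, 113151007 to 113164140), a protein of copper transport, stood at 3.43, 3.42, 2.50, 2.02 and 4.08 CPM in controls, at 0.650 CPM in HD exosome 2 and at 0 in the others (-4.86 ± 1.05, adjusted p 0.584). Both rest on few reads, and both groups stayed apart. SCAMP1 (chromosome 5, 78360617 to 78480739), a carrier membrane protein of the secretory and endosomal routes, was well covered. It stood at 77.03, 104, 92.5, 67.6 and 96.6 CPM in controls and at 61.1, 48.1, 54.03 and 51.7 CPM in HD exosomes (-0.70 ± 0.17, adjusted p 0.584; GC-corrected -0.87 ± 0.20). All 4 HD libraries, HD exosome 1 included, lay below all controls.

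**Figure D3:**
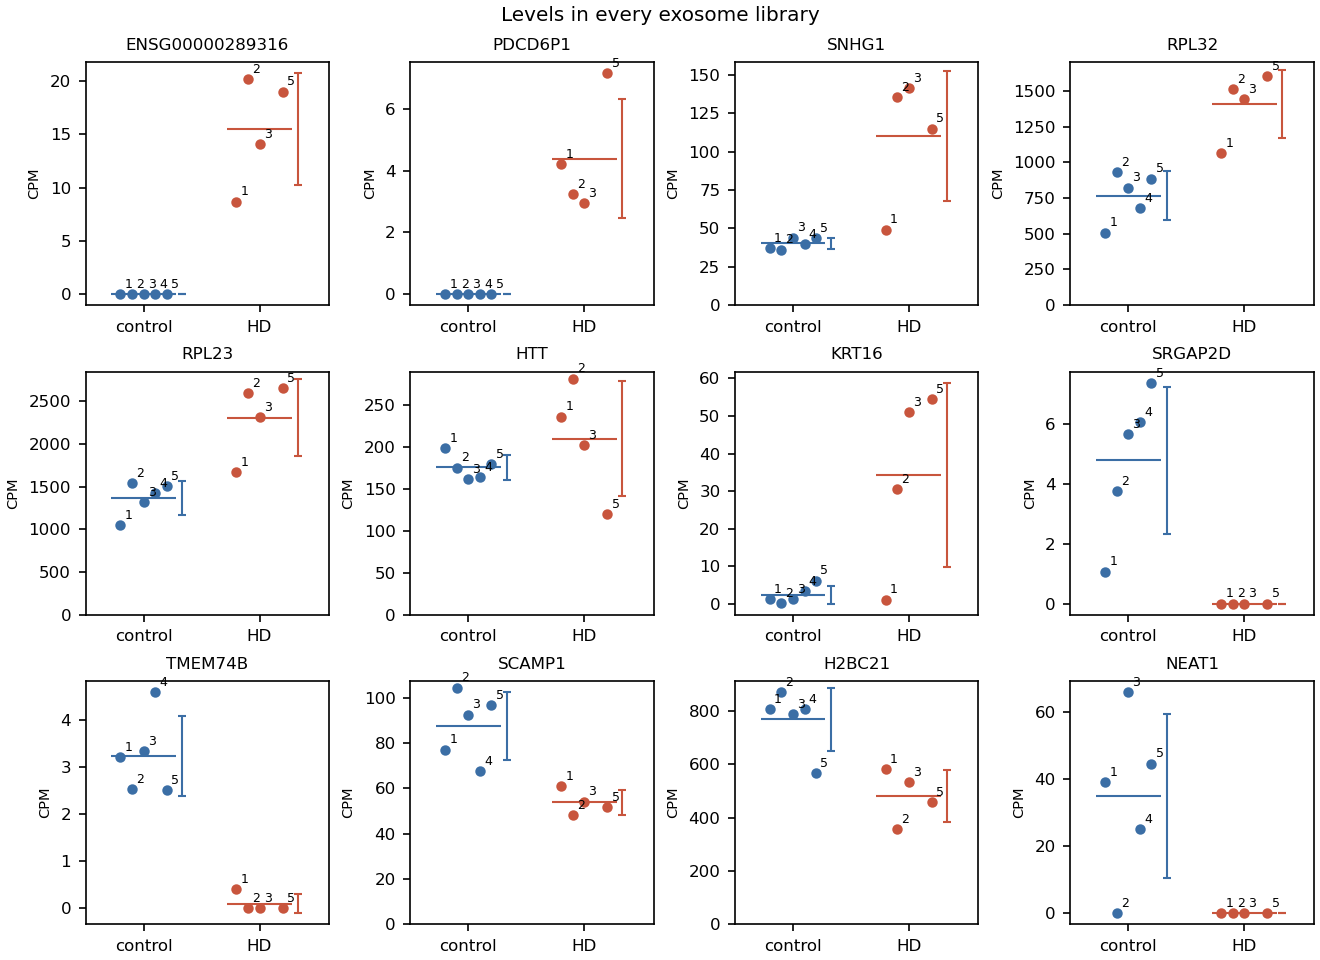
CPM (y axis, linear) of 12 genes in each control (blue) and HD (red) exosome library, with the replicate number beside each point, the group mean as a line and 1 SD as a bar. ENSG00000289316 and PDCD6P1 are at 0 in all 5 controls, SRGAP2D and NEAT1 are at 0 in all 4 HD libraries, and HTT overlaps between the groups.

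HTT mRNA (chromosome 4, 3074681 to 3243960) was present in every library. It stood at 199, 176, 162, 164 and 179.7 CPM in control exosomes 1 to 5 and at 237, 282, 203 and 120.2 CPM in HD exosomes 1, 2, 3 and 5. The log2 fold change was 0.26 ± 0.21 (95% interval -0.20 to 0.71, adjusted p 0.621, edgeR). It was 0.41 ± 0.18 after GC correction (unadjusted p 0.0448, adjusted p 0.554), 0.070 without HD exosome 2 and 0.45 without HD exosome 5, and none of these passed. HD exosomes 1, 2 and 3 lay above all controls and HD exosome 5 below them, so the groups overlapped and no difference was detectable. An expanded repeat cannot be read from a gene level. Of 50 tested genes of the Huntington list (partners of huntingtin and genes tied to the disease), 1 was higher and 1 lower at an unadjusted p under 0.05, with a median log2 fold change of -0.01. The lower one was AKT1, a kinase that phosphorylates huntingtin (-0.79 ± 0.31, adjusted p 0.584; GC-corrected -0.27 ± 0.15).

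Gene lists were read by counting members at an unadjusted p under 0.05, against 3.9% higher and 3.36% lower over all genes, since no member of any of the 35 lists was called (edgeR, adjusted p under 0.05; DESeq2 called 3 mRNAs of ribosomal proteins and SNHG1). After GC correction the shares over all genes were 5.59% higher and 3.35% lower. They were 7.52% and 15.9% without HD exosome 1, and 2.01% and 1.46% without HD exosome 2. The lists were chosen with earlier results of these data known, and no list was tested as a set.

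Among 85 tested mRNAs of cytosolic ribosomal proteins, 26 were higher (30.6%) and 0 lower at an unadjusted p under 0.05, and 68 had a positive log2 fold change. Their median was 0.28, against -0.02 over all genes. For 11 of the 85 members every HD library lay above every control, against 101 of 13374 genes tested (0.755%). Besides RPL32 and RPL23, RPL26 stood at 595, 1026, 816, 760.3 and 1031 CPM in controls and at 1178, 1959.7, 1342 and 1779 CPM in HD exosomes (0.89 ± 0.20). RPS25, of the small subunit, stood at 204, 379.8, 338, 305 and 397 CPM in controls and at 453, 674, 509 and 555 CPM in HD exosomes (0.75 ± 0.20). The summed level of all 86 members was 66582, 77734, 70861, 70404 and 74879 CPM in controls and 87010, 91921, 83127 and 75317 CPM in HD exosomes, so HD exosome 5 lay within the controls and the other 3 above them. After GC correction 47 members were higher at an unadjusted p under 0.05 (55.3%, against 5.59% of all genes higher and 8.94% in either direction) with a median of 0.36, and none was called at an adjusted p under 0.05 (edgeR). Without HD exosome 2 the count was 11 higher with a median of 0.19, against 2.01% of all genes higher in that fit. Without HD exosome 1 it was 22 higher and 5 lower, against 7.52% and 15.9% of all genes.

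Other lists of translation and energy metabolism showed smaller counts. Of 40 translation factors, 6 were higher and 0 lower (median 0.16). The counts were 11 and 1 after GC correction and 3 and 0 without HD exosome 2. Without HD exosome 1 they were 5 and 6, against 7.52% higher and 15.9% lower over all genes. Among the 6 was TPT1, a growth-related mRNA that begins with a pyrimidine tract, at 981, 1363, 1144, 1191 and 1166 CPM in controls and 1533, 1523, 1372 and 1755 CPM in HD exosomes (0.40 ± 0.13, adjusted p 0.584). Of 96 nuclear genes of the respiratory chain, 10 were higher and 1 lower (median 0.05), and 15 and 10 without HD exosome 1. NDUFAF2, an assembly factor of complex I, stood at 6.33, 10.3, 9.33, 6.98 and 12.3 CPM in controls and 13.3, 29.9, 22.2 and 26.2 CPM in HD exosomes (1.32 ± 0.31, adjusted p 0.584). ATP5MF, a subunit of ATP synthase, stood at 54.7 to 78.95 CPM in controls and 96.2 to 127 CPM in HD exosomes (0.59 ± 0.16, adjusted p 0.584), and for both genes the groups did not overlap. Of 78 mitochondrial ribosomal proteins 3 were higher and 2 lower, and of 47 proteasome genes 6 were higher and 1 lower, with medians of 0.08 and 0.12. Without HD exosome 5 the proteasome counts were 0 and 1, and the share over all genes in that fit is not given here. The 13 mRNAs encoded by mitochondrial DNA gave 0 in either direction, and MT-CO1 alone ranged from 3225 to 17395 CPM among controls.

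Replication-dependent histone mRNAs as a class end in a stem-loop in place of a poly(A) tail. The genes listed for this class, which were taken by symbol, went the other way. The ends of their transcripts were not checked. Of 54 tested, 0 were higher and 16 lower (29.6%) at an unadjusted p under 0.05, 52 had a negative log2 fold change, and the median was -0.42. Without HD exosome 2 there were 27 lower with a median of -0.57, against 1.46% of all genes lower in that fit. Without HD exosome 1 there were 18 lower with a median of -0.45, against 15.9% of all genes lower in that fit. Their summed level was 20455, 16788, 16839, 16571 and 14418 CPM in controls and 12691, 13686, 12458 and 9455 CPM in HD exosomes. All 4 HD libraries, HD exosome 1 included, lay below all 5 controls in this sum. H2BC21 stood at 807, 870.3, 789, 807 and 566 CPM in controls and at 580.4, 358, 534 and 457 CPM in HD exosomes, so HD exosome 1 overlapped with control exosome 5 (-0.67 ± 0.17, adjusted p 0.584; GC-corrected -0.72 ± 0.16). H2BC5 stood at 241 to 356 CPM in controls and 166 to 248 CPM in HD exosomes (-0.54 ± 0.16; GC-corrected -0.49 ± 0.15). The list is rich in GC, with a median of 57.7% against 48.9% over coding genes, and after GC correction 14 members were lower (25.9%, against 3.35% of all genes) with a median of -0.22. The correction moved members unequally: H2BC17 went from -0.56 ± 0.16 to 0.020 ± 0.17 and H2AC25 from -0.71 ± 0.22 to -0.19 ± 0.23.

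Lists of vesicle and granule biology gave few members. Of 39 genes of exosome formation and exosome markers, 2 were higher and 0 lower (median 0.06). STAM2, which sorts ubiquitinated cargo into endosomes, stood at 34.1 to 43.98 CPM in controls and 42.9 to 80.3 CPM in HD exosomes (0.61 ± 0.20, adjusted p 0.584). HSPA8, a chaperone abundant in exosomes, stood at 724 to 1053 CPM and 965 to 1349 CPM (0.34 ± 0.15, adjusted p 0.584), with overlap in both cases. Of 48 genes of stress granule proteins 1 was higher and 2 lower, and of 39 P-body and decay genes 1 was higher and 4 lower (10.3%, and 4 after GC correction), with medians of 0.07 and 0.01. The 4 lower of the decay list became 0 without HD exosome 2, where the share of all genes lower also fell, from 3.36% to 1.46%. They became 0 without HD exosome 5 as well, a fit whose share over all genes is not given here. In that last list XRN1, the cytoplasmic exonuclease that degrades decapped mRNA, stood at 0.46 ± 0.19, and AGO2, the slicer of RNA interference, at -0.30 ± 0.13 (adjusted p 0.584 each).

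Stress and clearance pathways studied in Huntington's disease gave counts of the same order. Of 40 chaperones of the heat shock response 3 were higher and 0 lower (median 0.18), of 40 genes of the unfolded protein and integrated stress response 1 and 1 (0.03), and of 43 autophagy and lysosome genes 3 and 2 (-0.01). In the autophagy list WIPI1, which binds phosphoinositides on forming autophagosomes, stood at 4.40, 5.63, 5.50, 4.96 and 4.40 CPM in controls and at 11.4, 16.3, 7.40 and 11.5 CPM in HD exosomes. All HD libraries lay above all controls for this gene (log2 fold change 1.22 ± 0.32, adjusted p 0.584; GC-corrected 1.27 ± 0.33). TAX1BP1, a receptor that brings ubiquitinated cargo to autophagosomes, stood at 49.03 to 68.2 CPM and 61.5 to 106 CPM (0.59 ± 0.21). EIF2AK2, the kinase PKR, stood at 66.9 to 140.3 CPM and 113 to 204 CPM (0.56 ± 0.23), and ERN1, the stress sensor IRE1, at 24.9 to 36.7 CPM and 14.95 to 25.9 CPM (-0.60 ± 0.23), each with overlap and an adjusted p of 0.584.

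The interferon list gave 1 of 23 higher and 0 lower, the p53 list 2 and 2 of 34, the cholesterol list 0 and 1 of 28, the cell cycle list 4 and 1 of 41, the YAP target list 1 and 0 of 26, and neuronal genes 0 and 0 of 15. Glycolysis genes gave 0 and 2 of 23 with a median of -0.21, and immediate early genes 0 and 1 of 31 with a median of -0.34. These 2 medians moved with GC content: they were -0.02 and -0.05 after GC correction, and the deviations were carried by HD exosomes 2 and 5 (-0.50 and -0.69 for glycolysis, -0.57 and -0.78 for immediate early genes) against 0.07 and 0.14 in HD exosome 1. Zinc finger transcription factor mRNAs gave 19 higher and 3 lower of 445, with a median of 0.13 that was 0.05 after GC correction. Without HD exosome 1 they gave 35 higher and 43 lower, against 7.52% higher and 15.9% lower over all genes in that fit. Their median was 0.14 without HD exosome 1, 0.05 without HD exosome 2 and 0.04 without HD exosome 5.

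**Figure D4:**
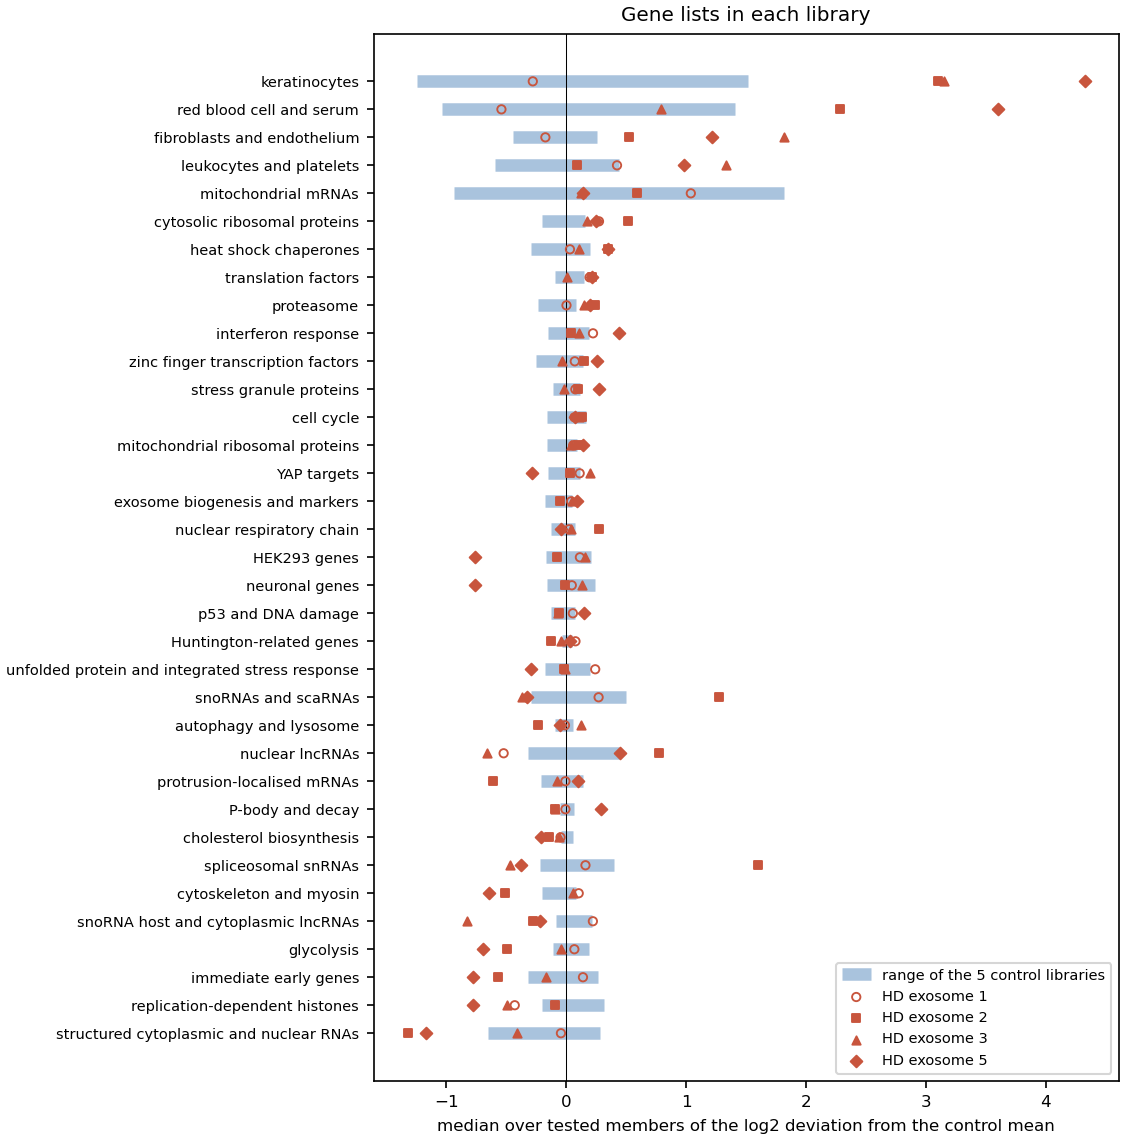
For each of 35 gene lists (y axis), the median over its tested members of the log2 deviation from the control mean (x axis), in HD exosomes 1, 2, 3 and 5 (symbols) and as the range of the 5 control libraries (blue bars). Keratinocyte genes stand at 3.10, 3.15 and 4.33 in HD exosomes 2, 3 and 5 and at -0.28 in HD exosome 1, and cytosolic ribosomal proteins lie between 0.17 and 0.52 in all 4.

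Several markers of cells other than HEK293 stood higher in 3 of the 4 HD libraries. Among 6 tested keratinocyte genes of 10 listed, 5 were higher and 0 lower at an unadjusted p under 0.05 (median log2 fold change 3.02). KRT16 stood at 1.18, 0.221, 1.17, 3.31 and 6.13 CPM in controls and at 1.09, 30.6, 51.1 and 54.5 CPM in HD exosomes 1, 2, 3 and 5 (3.85 ± 0.94, adjusted p 0.584), so HD exosome 1 lay within the controls. SFN, an epithelial 14-3-3 protein, followed the same order at 4.97 to 10.2 CPM in controls and 5.29, 19.5, 25.9 and 41.4 CPM in HD exosomes (1.78 ± 0.48). Without HD exosome 1 both passed (adjusted p 0.0383 and 0.0353, edgeR). The summed level of the 10 genes was 365 to 583 CPM in controls and 509, 949.96, 842 and 1590.4 CPM in HD exosomes, and in controls most of it was DSP, a desmosome protein, at 346 to 564 CPM (481 to 635 CPM in HD exosomes). Other listed genes did not follow these 3 libraries and were not tested. KRT14, a defining keratin of basal skin, was at 0 in all 4 HD exosomes. KRT2 and KRT10 were at 0 in HD exosomes 2 and 3 and at 86.9 and 41.4 CPM in HD exosome 5. They reached at most 7.34 and 4.83 CPM in controls. DCD reached at most 0.785 CPM in controls and 0.934 CPM in HD exosomes.

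Of the haemoglobin genes, HBG2 and HBG1 had the same 3 libraries above all controls, and HBA1, HBA2 and HBB did not. HBG2 stood at 4.83, 15.1, 47.2, 16.9 and 9.90 CPM in controls and at 13.3, 148, 68.1 and 350.4 CPM in HD exosomes (2.96 ± 0.84, adjusted p 0.584). Over the blood and serum list 4 of 6 tested genes of 8 were higher and 0 lower, and the summed level was 73.1 to 290.4 CPM in controls and 91.1, 663, 319 and 2104 CPM in HD exosomes 1, 2, 3 and 5. ALAS2, the erythroid enzyme of haem synthesis, stood at 7.54 to 30.5 CPM in controls and 9.97 to 22.9 CPM in HD exosomes (-0.31 ± 0.39, adjusted p 0.724, edgeR), so the groups overlapped. ALB, which encodes serum albumin, was at 0 in HD exosomes 2, 3 and 5. It reached at most 1.00 CPM in controls and 0.271 CPM in HD exosome 1, and it was not tested. Of 10 leukocyte and platelet genes only 3 had enough reads to test, 1 of them higher (CD74, 2.33 ± 0.83, adjusted p 0.584), and PPBP was at 0 in all 9 libraries. Of 10 fibroblast and endothelial genes 4 were tested and 2 were higher. The HEK293 genes themselves gave 0 of 7 in either direction (median -0.07). After GC correction the median was -0.003, with 1 higher and 0 lower. Without that correction HD exosome 5, the highest in HBG2 and KRT16, stood at a median deviation of -0.76 over this list. The range was -0.17 to 0.21 in controls and -0.07 to 0.15 in the other HD exosomes. The members did not move alike in HD exosome 5. LIN28B was high there, at 132 to 194 CPM in controls and at 148, 239, 142 and 279 CPM in HD exosomes. SALL1 stood at 27.6 to 35.8 CPM in controls and at 29.3 CPM in HD exosome 5. INA stood at 30.3 to 44.1 CPM in controls and at 20.9 CPM in HD exosome 5. VIM stood at 644 to 778 CPM in controls and 723 to 892 CPM in HD exosomes. CKB, a creatine kinase rich in GC, stood at 563 to 877 CPM in controls and at 781, 349, 569.95 and 179 CPM in HD exosomes (-0.50 ± 0.33; GC-corrected 0.20). GATA3 stood at -0.46 ± 0.37, and NEFL, at 36.4 to 85.8 CPM in controls, was at 0 in HD exosome 3. PAX2 and NEFM, also listed for the line, were under 2 CPM in all 9 libraries and not tested. The part of other cells' RNA in the other results was not tested.

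As a share of all estimated reads, small nuclear RNAs (snRNAs, the RNA parts of the spliceosome) took 1.20%, 0.711%, 0.639%, 0.747% and 0.754% in control exosomes 1 to 5. They took 0.601%, 0.0538%, 0.248% and 0.282% in HD exosomes 1, 2, 3 and 5, with 86.6% of all reads of HD exosome 2 on unnamed entries. Counting error is small beside these differences (Wilson 95% interval 1.19% to 1.20% for the highest and 0.0526% to 0.0550% for the lowest, for counting error only). All 4 HD libraries lay below all controls, with means of 0.809% ± 0.221 and 0.296% ± 0.227 (SD, n = 5 and 4). The exact 2-sided permutation p was 0.0159, the smallest that 4 against 5 libraries allow, and 0.159 after adjustment over 10 RNA classes, so it did not pass, and a single class could not pass at this size. Of the 10 classes none passed (exact permutation test, adjusted p under 0.05), and snRNA was the 1 class with an unadjusted p under 0.05. The next smallest, miscellaneous RNA, took 0.0161% ± 0.00468 in controls and 0.0856% ± 0.0578 in HD exosomes (exact p 0.0635, adjusted 0.317), and HD exosome 1 lay within the controls. As a share of reads on named genes, snRNAs took 1.12% to 2.06% in controls. That share was 0.980%, 0.400%, 0.369% and 0.399% in HD exosomes 1, 2, 3 and 5, so HD exosome 2 was level with HD exosomes 3 and 5.

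Single genes of these small RNAs were more variable than the class. RNU1-1, a U1 snRNA, stood at 5554, 2334, 5192, 3001 and 5803 CPM in controls and at 4327, 0, 1721 and 2046 CPM in HD exosomes (-1.11 ± 1.17, adjusted p 0.689). RNVU1-7, a variant U1 gene, stood at 2101, 910.4, 2935, 3011 and 1415 CPM in controls and at 997, 812, 1302 and 237 CPM in HD exosomes (-1.31 ± 0.45, adjusted p 0.584). Both genes overlapped between the groups, and the 0 of RNU1-1 in HD exosome 2 stood in the library with most reads on unnamed entries, whose part in it was not tested. RN7SK, which holds the elongation factor P-TEFb inactive, stood at 3152 to 11234 CPM in controls and at 4217, 0, 244 and 755 CPM in HD exosomes (-2.32 ± 1.36, adjusted p 0.585), and RPPH1, the RNA of RNase P, at 6872 to 15565 CPM and at 11923, 3436, 11875 and 0 CPM (-0.72 ± 1.34, adjusted p 0.815).

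U4 snRNA was higher in some HD libraries while the class was lower. It pairs with U6 snRNA until the spliceosome is activated, and it has a pair of near-identical genes on chromosome 12, RNU4-1 (120293093 to 120293237 in RefSeq) and RNU4-2 (120291759 to 120291903). Their transcripts are shown because reads can pass between such copies; the sequences are those of GENCODE release 29, 5′ to 3′ as DNA, with capitals for the Sm site, where the ring of Sm proteins binds.
RNU4-1: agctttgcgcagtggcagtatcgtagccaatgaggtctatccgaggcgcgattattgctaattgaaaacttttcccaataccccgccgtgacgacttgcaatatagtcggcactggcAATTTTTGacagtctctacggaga
RNU4-2: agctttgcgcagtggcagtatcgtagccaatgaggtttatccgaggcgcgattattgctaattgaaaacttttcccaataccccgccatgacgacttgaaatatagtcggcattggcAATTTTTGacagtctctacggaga
Each is 141 bases long, and they differ at 4 positions counted from the 5′ end, C37T, G88A, C99A and C113T, with the base of RNU4-1 first; none lies in the Sm site at 118 to 125. RNU4-1 stood at 15.8, 14.6, 24.8, 15.4 and 20.6 CPM in controls and at 22.4, 398, 25.2 and 92.5 CPM in HD exosomes (2.87 ± 0.72, adjusted p 0.584). RNU4-2 stood at 54.4, 0, 68.3, 53.1 and 46.3 CPM in controls and at 51.4, 1064, 113 and 221 CPM in HD exosomes (3.02 ± 1.19, adjusted p 0.584). For both copies HD exosomes 2 and 5 stood well above the controls and HD exosome 1 did not. Over the 14 tested snRNA genes of 1836 annotated, 5 were higher and 1 lower, with a median of 1.86 that became -0.19 without HD exosome 2. The 20 tested small nucleolar and Cajal body RNAs of 973 gave 1 higher and 1 lower.

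Among longer noncoding RNAs, NEAT1, the scaffold of nuclear paraspeckles, stood at 39.2, 0, 65.8, 24.97 and 44.6 CPM in controls and was listed at 0 in all 4 HD exosomes. Control exosome 2 was at 0 as well, so the groups overlapped (adjusted p 0.584, edgeR). Without that library the adjusted p was 0.0141. The HD mean was at least 157-fold lower against the floor of 3 counts over the HD group. SNHG17, another host of small nucleolar RNAs, stood at 39.00 to 49.8 CPM in controls and at 45.5, 21.5, 5.92 and 9.97 CPM in HD exosomes (-1.04 ± 0.44, adjusted p 0.584). Unlike SNHG1 it was lower in HD exosomes 2, 3 and 5, and over the 16 tested host and cytoplasmic lncRNAs 1 was higher and 1 lower.

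HD exosome 1 decided how many genes were called. Without it 65 genes passed (0.476% of 13664), 13 higher (0.0951%) and 52 lower (0.381%), and leaving out any other single library gave 0 to 2. Of the 65 genes, 63 were also tested with all 9 libraries, all 63 had the same sign there, and 42 had an unadjusted p under 0.05. Those called lower had a median GC content of 59.4% and those called higher 45.99%, against 48.9% over all genes tested. Of the genes named above, ENSG00000289316, SNHG1, KRT6B, RPL23, KRT16, SFN and SNHG17 were among them (adjusted p 0.0142, 0.00267, 0.0244, 0.0445, 0.0383, 0.0353 and 0.0494, edgeR). At an unadjusted p under 0.05 there were 3204 genes without this library (23.4%), 1027 higher (7.52%) and 2177 lower (15.9%). Without HD exosome 2 there were 479 (3.47%), 277 higher (2.01%) and 202 lower (1.46%).

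Whether the HD effect in exosomes differed from that in granules was tested as an interaction over 19 libraries and 17002 genes. In granules, 0 genes were called between HD and control (edgeR), and 264 (1.55%) had an unadjusted p under 0.05. The effects differed for 2 genes (0.0118%), and 820 (4.82%) had an unadjusted p under 0.05. For PDCD6P1 the log2 difference of the effects was 8.12 ± 1.07 (adjusted p 0.0155): scaled over these libraries it stood at 1.23, 2.83, 3.17, 3.69 and 4.36 CPM in control granules and 3.73, 5.36, 1.97, 5.07 and 7.81 CPM in HD granules, so control exosomes were the single group at 0. For ENSG00000290793, an lncRNA without a symbol of 2005 bases, the difference was -8.36 ± 1.16 (adjusted p 0.0155). It stood at 4.28, 2.09, 2.98, 5.20 and 2.62 CPM in control exosomes, 0 in all 4 HD exosomes, 2.31 to 5.15 CPM in HD granules and 2.67 to 6.09 CPM in control granules. DESeq2 called 21 genes (0.124%), and voom with quality weights called none with 1064 at an unadjusted p under 0.05. Cytosolic ribosomal proteins had a median log2 fold change of 0.48 in granules beside 0.28 in exosomes, and 0 of their members differed between the 2 effects at an unadjusted p under 0.05.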

How the data were processed

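Total RNA of exosomes was extracted with the mirVana kit and sequenced as stranded paired-end libraries, per the labels' protocols. Per the submitters' processing notes, Trimmomatic, cutadapt, FastQC, Salmon and the build GRCh38.p14 were used, with no versions stated in them. The authors deposited 1 Salmon table per library, with an estimated count (expected count) for each of 921552 entries, of which 251955 were named transcripts. The TPM column of the authors' deposited tables was read but carries no result here. Estimated counts of named transcripts were summed per gene (62266 genes) and rounded to whole numbers, and unnamed entries were left out of library sizes and tests.

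Genes passing filterByExpr were tested with edgeR 4.0.16 in R 4.3.3 (TMM, robust quasi-likelihood, Benjamini-Hochberg adjustment), with DESeq2 1.42.0 and limma 3.58.1 as alternatives. Standard errors are the log2 fold change divided by the root of F. GC content came from GENCODE release 29 transcripts, and the GC correction (lowess span 0.3, as offsets) was chosen after seeing the data. GC content was available for 13131 of the 13374 genes tested, and the others were not corrected. Levels for correlations and list deviations are log2(CPM + 1). Shares of RNA classes were compared by exact permutation. Genes named are, since no gene with a symbol was called, the 5 with the smallest p in each direction among genes with a symbol, HTT, and up to 4 tested members of each list with the smallest p. The highest genes by TPM are named where a result turns on them. The 3 genes without a symbol, PDCD6, the SRGAP2 copies and further marker genes were named after their values were seen. Members and lists were chosen with earlier results of these data known. The edgeR fit of HD against control exosomes was tested on simulated counts. Nothing in the labels says the replicates came from separate cultures beyond the word biological, so p-values measure the spread between these libraries. One gene of the Huntington list is not reported here by name.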

Additional observations from a re-analysis of the deposited data

Results flagged for a closer look

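Within-group gaps were checked with Dixon's ratio for 160 groups of values (10 class shares, the total reads and 69 genes, in each group of libraries), and 17 stood apart at the 95% critical value, a rule that by chance marks about 5% of groups. HD exosome 2 accounted for 6 of them. It had 86.6% of reads on unnamed entries, 8.86% on nuclear mRNA and 3.13% on lncRNA, and it held the highest levels of ENSG00000280800 (287245 CPM) and RNU4-2 (1064 CPM). Its SLC31A2 level of 0.650 CPM stood apart because the other 3 HD exosomes were at 0, and the same holds in HD exosome 1 for TMEM74B at 0.407 CPM and ALB at 0.271 CPM. HD exosome 3 was high for ATP5MF (127 CPM) and HD exosome 5 for HBA2 (768 CPM).

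Among controls, exosome 1 had the highest snRNA share (1.20%), which widened the control range of the class, and the highest H2AC25 (371 CPM) and NEFL (85.8 CPM). Control exosome 5 was low for H2BC21 (566 CPM) and high for SFN (10.2 CPM), and control exosome 3 was high for HBG2 (47.2 CPM) and HBA2 (16 CPM).

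The HD effect differed between exosomes and granules, by the interaction test over 19 libraries, for PDCD6P1 (log2 difference 8.12) and ENSG00000290793 (-8.36), each with an adjusted p of 0.0155 (edgeR).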

How the results depend on the processing

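The number of genes called in HD against control exosomes (1) ranged from 0 to 65 when 1 library was left out. It was 0 with HD exosome 4 included, 10 with DESeq2, 2 with voom, 185 with no count filter (114 higher and 71 lower) and 3 when all 4 groups shared the spread. RLE and upper-quartile factors, a stricter filter and the GC correction gave 1. With the replicate number as a block 0 genes were called (1755 at an unadjusted p under 0.05), and GC correction with the replicate block gave 11. Correlations of deviations between same-numbered libraries were 0.31, 0.05, -0.04 and 0.24, and 2 of the 4 HD exosomes correlated best with their own number. Neither these values nor the labels settle whether same-numbered libraries were paired. Genes whose effect differed from granules (2) ranged from 0 (without HD exosome 5) to 20 (without HD exosome 1). They numbered 0 with the replicate block, 21 with DESeq2 and 0 with voom. The log2 fold change of HTT ranged from 0.07 to 0.45 over 21 alternatives, with adjusted p from 0.550 to 0.944 (edgeR, DESeq2 or voom). The exact test of RNA classes could not reach an adjusted p under 0.05 for a single class with 4 against 5 libraries, so its alternatives say nothing of stability. Directions reversed under GC correction for H2BC17 (from -0.56 to 0.020, and 0.040 with GC correction without HD exosome 2). They also reversed for ENO1 (from -0.18 to 0.092 with GC correction, 0.087 with GC correction and replicate block, and 0.078 with GC correction without HD exosome 2) and GAPDH (from -0.17 to 0.23, 0.20 and 0.24 under the same 3 settings); the cause was not tested. Low depth on named genes in HD exosomes 2 and 3 limits genes of few counts, for which a level of 0 is not an absence.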
